A study of Mus musculus with 18 samples.

Results

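MHC class I molecules show pieces of a cell's own proteins to T cells, and 10 genes of this pathway were followed here in mouse bone marrow MSCs. They are the heavy chains H2-K1, H2-D1 and H2-T23, their light chain B2m, the loading genes Tap1, Tap2 and Tapbp, the inducible proteasome subunits Psmb8 and Psmb9, and the transcription activator Nlrc5. They were chosen by name from a table of 27179 genes, with earlier results of these data known. Each was found in 1 row, and all 10 passed the filter for testing, an average of 10 or more normalized counts across the 18 libraries, as did 14353 genes in all.

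MSCs, cells of the marrow stroma that attach and expand in culture, were the material. Those sequenced came from C57BL6 mice, which the study's methods give as males of 6 weeks (young) or 18 to 24 months (old). There were 6 libraries each of Young MSCs, Old MSCs and Rejuvenated Old MSCs. Young and Old MSCs were grown on their own for 7 days. Rejuvenated Old MSCs were old cells that spent the 7 days sharing a well with young MSCs across a 0.4 µm Transwell membrane, which soluble factors cross and cells do not, with 100000 old MSCs to a replicate. No library of old MSCs grown beside other old MSCs was used here, so an effect of sharing the well and an effect of the partner's age cannot be told apart. The labels number the biological replicates without saying whether each came from its own mouse, so p-values measure the spread between these cultures. In bulk RNA, fewer cells of a type and less RNA per cell cannot be told apart.

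The libraries held 22936251 to 29559194 reads on genes. Of 12 marrow stromal markers, 11 were above 3 reads in at least 1 library of every group, and Thy1 was at or under 3 reads in all Old libraries. Their summed level was 183771 to 196809 normalized counts in Young MSCs, 371910 to 391561 in Old MSCs and 374163 to 418177 after co-culture. In Young against Old MSCs 4 of the 12 were higher and 8 lower, with log2 fold changes from -5.48 to 6.70. The summed level of 12 macrophage markers was 952 to 1073 normalized counts in Young MSCs, against 14657 to 18233 in Old MSCs and 14459 to 17704 after co-culture. Ptprc, Adgre1, Itgam, Laptm5 and Tyrobp were at or under 3 reads in every Young library. Of the 12, co-culture left Itgam higher and Cd68 lower than in Old MSCs, and 10 did not pass the test. Markers of B cells summed to at most 15.2 normalized counts and markers of T and NK cells to at most 38.2 in any library.

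A class I molecule is a heavy chain paired with beta-2-microglobulin (B2m) around a short peptide. The proteasome cuts the peptides, and under interferon it takes up the inducible subunits Psmb8, Psmb9 and Psmb10 in place of Psmb5, Psmb6 and Psmb7. The transporter Tap1-Tap2 moves the peptides into the endoplasmic reticulum, where tapasin (Tapbp) holds the empty heavy chain beside the transporter. Nlrc5 binds through DNA-bound partners at the S, X and Y boxes of class I promoters, and NF-kB and interferon-regulatory factors bind upstream of these boxes. Marrow stromal cells carry class I molecules at rest and raise them under interferon gamma.

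Of the 10 members, 8 lie in the MHC on chromosome 17, between Tapbp (chr17:33919478-33929290) and H2-T23 (chr17:36029977-36032701). H2-K1 is at chr17:33996012-34000619 and H2-D1 at chr17:35263094-35267497. Psmb9 (chr17:34182030-34187330), Tap1 (chr17:34187556-34197225), Psmb8 (chr17:34198195-34201454) and Tap2 (chr17:34204479-34216321) are neighbours. B2m is on chromosome 2 (chr2:122147687-122153082) and Nlrc5 on chromosome 8 (chr8:94434335-94527272), all in GRCm38 (mm10).

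RefSeq promoter windows of GRCm38.p6, from 250 bases before to 50 after the start, were found for 8 of the 10 members and not for Tap2 and Nlrc5. The 250 bases before the start of H2-K1, the member with the largest rise in Rejuvenated Old MSCs, and of B2m, the most abundant member, are shown 5′ to 3′ on the gene's strand. The H2-K1 window is the first of 2 that RefSeq lists and is set on a transcript start inside the outer bounds given above, where other transcripts begin further upstream. The sequences cover chr17:34000348-34000597 on the minus strand and chr2:122147437-122147686 on the plus strand. Capitals in H2-K1 mark GGGATTCC (kB-like), TGACG (X2-like) and ATTGG (Y-like). Capitals in B2m mark GAAA and GAAA parted by 2 bases (ISRE-like, the kind of site interferon-regulatory factors bind), then, read on the other strand, GGGA and TTTCC parted by 1 base (kB-like), then TGACG and ATTGG.
H2-K1: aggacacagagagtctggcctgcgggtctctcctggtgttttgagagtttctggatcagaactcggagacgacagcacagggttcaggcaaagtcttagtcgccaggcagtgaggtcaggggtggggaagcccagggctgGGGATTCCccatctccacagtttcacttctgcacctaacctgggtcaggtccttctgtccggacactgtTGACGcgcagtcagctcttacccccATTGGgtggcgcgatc
B2m: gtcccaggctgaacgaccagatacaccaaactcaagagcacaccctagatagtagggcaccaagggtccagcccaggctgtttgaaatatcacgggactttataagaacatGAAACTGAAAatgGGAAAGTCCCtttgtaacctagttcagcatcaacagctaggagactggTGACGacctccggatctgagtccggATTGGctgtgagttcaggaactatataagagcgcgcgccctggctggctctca

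TGACG and ATTGG stand 20 bases apart in both, and H2-D1 has them at the same spacing (chr17:35262993-35263022, plus strand). This spacing was looked for on the gene's own strand after the windows had been seen, and 0.0578% of 32851 windows hold it. The 30 bases of each module show how far the members share the letters between the capitals, which mark TGACG and ATTGG.
H2-K1 module: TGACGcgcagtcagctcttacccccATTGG
H2-D1 module: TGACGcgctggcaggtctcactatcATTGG
B2m module: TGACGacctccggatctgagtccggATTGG

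The windows of H2-K1 and H2-D1 were 90.4% identical over 228 aligned columns of a local alignment. On both strands, TGACG was found in 5 of the 8 windows (B2m, H2-D1, H2-K1, Psmb9 and Tap1) and in 20.8% of all windows. CCAAT, the reverse complement of ATTGG, was found in 7 of 8, all but Psmb8, and in 37.4% of all windows. The windows of Tap1 (chr17:34187306-34187605) and Psmb9 (chr17:34187281-34187580) overlap on opposite strands. Their TGACG matches are the same site, as are their CCAAT matches, and each was counted in both windows. The ISRE-like letters were in the windows of B2m and H2-T23 (3.44% of all windows), TTCNNNGAA (GAS-like) in that of Psmb8 (8.3%), GGGATTCC in those of H2-D1 and H2-K1 (1.06%) and the longer kB-like letters in that of B2m (0.411%). Each search took only the exact letters given, so a window without a match can still hold a site of that kind in other letters. This holds for H2-K1 and the ISRE-like letters too. A match is a description of the letters, and no binding was measured in these data.

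Per kilobase of annotated exon, B2m stood far above the rest in every group, at 41478 ± 4193 normalized counts per kb in Young MSCs, 38674 ± 7078 in Old MSCs and 49826 ± 3842 after co-culture (mean ± SD, n = 6 each). The heavy chain next in order was H2-K1 in Young MSCs, at 2443 ± 264 per kb, ahead of H2-T23 at 1477 ± 254 and H2-D1 at 428 ± 90.8. In Old MSCs H2-D1 led at 1431 ± 179 per kb, with H2-K1 at 708 ± 160 and H2-T23 at 404 ± 106. In Rejuvenated Old MSCs H2-D1 was again first at 1976 ± 148 per kb and H2-K1 second at 1434 ± 136, and their ranges did not meet. By these counts the heavy chain with the highest level differed between Young MSCs and both Old groups. The split of reads among heavy chain genes is uncertain, as described below, and this order depends on it. At the low end Nlrc5 was last in each group, at 36.8 per kb in Young MSCs, 63.0 in Old MSCs and 60.4 after co-culture, and Psmb9 was next to last. The ranges of Psmb9 and Nlrc5 overlapped in Young and Old MSCs and were apart in Rejuvenated Old MSCs. Exon length here is the union over all annotated transcripts, which can exceed that of any single mRNA. It was 860 bases for B2m, 3381 for Psmb8, 3660 for Psmb9 and 8493 for Nlrc5, so the order depends in part on the annotation.

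**Figure D1:**
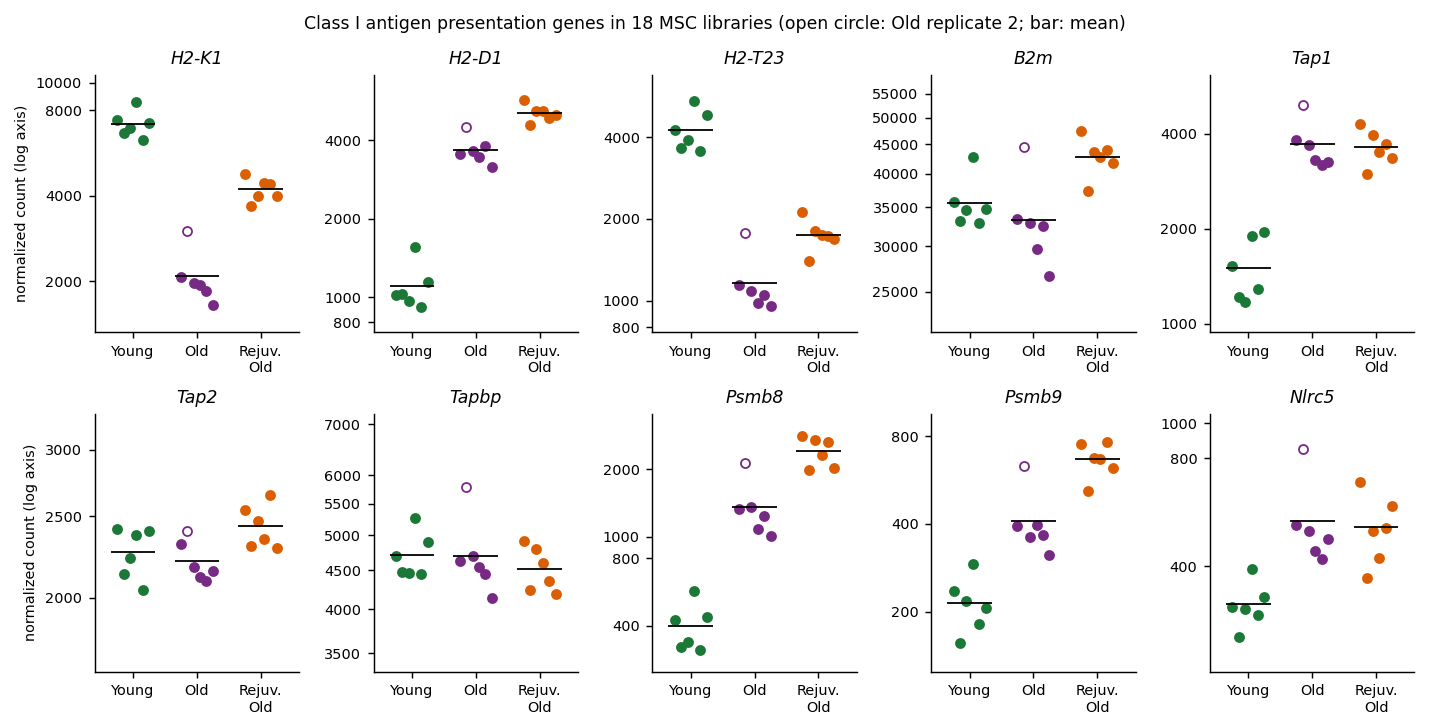
Normalized counts of the 10 members (log axis, scaled per panel) in 6 Young, 6 Old and 6 Rejuvenated Old MSC libraries, with 1 point per library and a bar at the group mean. H2-K1 and H2-T23 are highest in Young MSCs, H2-D1, Psmb8 and Psmb9 in Rejuvenated Old MSCs, and the open circle, Old replicate 2, is the highest Old library in all 10 panels.

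Old replicate 2 stood apart from the other Old libraries. It was the highest of the 6 for 10 of 10 members, and for 27 of 30 interferon-induced genes, which summed to 99462 normalized counts there and to a median of 38585 over the 6 Old libraries. Among Young libraries replicate 4 was highest for 8 members and 26 interferon-induced genes. Among Rejuvenated Old libraries replicate 1 was highest for 8 members and 29 interferon-induced genes, and replicate 2 was lowest for 8 and 27. The members' differences from Old MSCs, and the list counts that change, are given below also without Old replicate 2. This library was singled out after its values had been seen. Since it was the highest Old library for every member, leaving it out can only raise their log2 fold changes against Old MSCs. The values without it are therefore no separate evidence of a rise in Rejuvenated Old MSCs.

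The first comparison asked what 7 days beside young MSCs changed in old MSCs. In Rejuvenated Old against Old MSCs, 7 of the 10 members were higher, 0 were lower and 3 did not pass the test (limma, adjusted p under 0.05 over all genes tested). Of all genes tested 41.6% were called in this comparison, 21.0% higher and 20.6% lower. The median log2 fold change of the members was 0.43, beside 0.01 over all genes tested. At an unadjusted p under 0.05 the member counts were also 7 higher and 0 lower, and edgeR and DESeq2 on recovered reads gave 7 higher and 0 lower as well. The groups did not overlap for H2-K1 and H2-D1, both higher, as for 10.4% of all genes tested. Without Old replicate 2 the groups did not overlap for 6 members, H2-K1, H2-D1, H2-T23, B2m, Psmb8 and Psmb9, beside 11.2% of all genes, and the count of called members was still 7.

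H2-K1, a classical heavy chain that presents peptides to CD8 T cells, ran from 1653 to 2995 normalized counts in Old MSCs (median 1958) and from 3672 to 4777 in Rejuvenated Old MSCs (median 4200). Every Rejuvenated Old library lay above every Old library. Its log2 fold change was 1.04 ± 0.10 (SE; adjusted p = 2.75e-08, limma), a 2.06-fold higher level, and without Old replicate 2 it was 1.15.

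H2-D1, the other classical heavy chain of this strain, ran from 3155 to 4520 normalized counts in Old MSCs (median 3599) and from 4606 to 5738 in Rejuvenated Old MSCs (median 5085). The groups did not overlap. The log2 fold change was 0.47 ± 0.10 (adjusted p = 0.000461, limma), and it was 0.53 without Old replicate 2.

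H2-T23 encodes Qa-1, a non-classical heavy chain that NK cell receptors read. It ran from 956 to 1773 normalized counts in Old MSCs (median 1070.3) and from 1399.8 to 2126 in Rejuvenated Old MSCs (median 1737). The groups overlapped only through Old replicate 2, at 1773. The log2 fold change was 0.61 ± 0.13 (adjusted p = 0.000528, limma) and 0.73 without that library.

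B2m, the light chain shared by the classical and most class I-like molecules, ran from 26595 to 44536 normalized counts in Old MSCs (median 32702) and from 37411 to 47528 in Rejuvenated Old MSCs (median 43173). Here too the overlap came from Old replicate 2. Its log2 fold change was 0.38 ± 0.09 (adjusted p = 0.00135, limma), or 1.30-fold, and 0.47 without that library.

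The loading genes moved little. Tap2 was 2209 ± 124 normalized counts in Old and 2434 ± 144 in Rejuvenated Old MSCs, with overlapping ranges and a log2 fold change of 0.14 ± 0.05 (adjusted p = 0.0221, limma). Its call was lost without Old replicate 4 (0.13, adjusted p = 0.0506), Old replicate 5 (0.12, adjusted p = 0.0544) or Rejuvenated Old replicate 5 (0.11, adjusted p = 0.0604). Tap1 was 3699 ± 650 and 3632 ± 455 normalized counts, and its log2 fold change of -0.02 had a 95% interval from -0.26 to 0.22. Tapbp was 4704 ± 563 and 4517 ± 302, with a log2 fold change of -0.05 (95% interval -0.17 to 0.07). Without Old replicate 2 the log2 fold changes were 0.16 for Tap2, 0.07 for Tap1 and 0.01 for Tapbp. For Tap1 and Tapbp the test did not show a difference, and the intervals leave out changes as large as that of H2-K1.

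Psmb8, the inducible chymotrypsin-like subunit, ran from 1011 to 2131 normalized counts in Old MSCs (median 1282) and from 1992 to 2832 in Rejuvenated Old MSCs (median 2479). The overlap was with Old replicate 2 alone. The log2 fold change was 0.86 ± 0.16 (adjusted p = 0.00011, limma) and 1.00 without that library. Psmb9, the inducible subunit that takes the place of Psmb6, ran from 314 to 631 in Old MSCs (median 379.9) and from 517 to 764 in Rejuvenated Old MSCs (median 669.5). Its log2 fold change was 0.72 ± 0.14 (adjusted p = 0.000369, limma) and 0.85 without Old replicate 2. Psmb9 and Tap1, neighbours that start beside each other on opposite strands, thus had log2 fold changes of 0.72 and -0.02.

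Nlrc5, which drives transcription of class I genes, ran from 419 to 850 normalized counts in Old MSCs (median 489) and from 371 to 687 in Rejuvenated Old MSCs (median 506). The ranges overlapped in most of their width. The log2 fold change was -0.05 ± 0.15, with a 95% interval from -0.34 to 0.25 (adjusted p = 0.838, limma), and it was 0.10 without Old replicate 2 (adjusted p = 0.575).

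**Figure D2:**
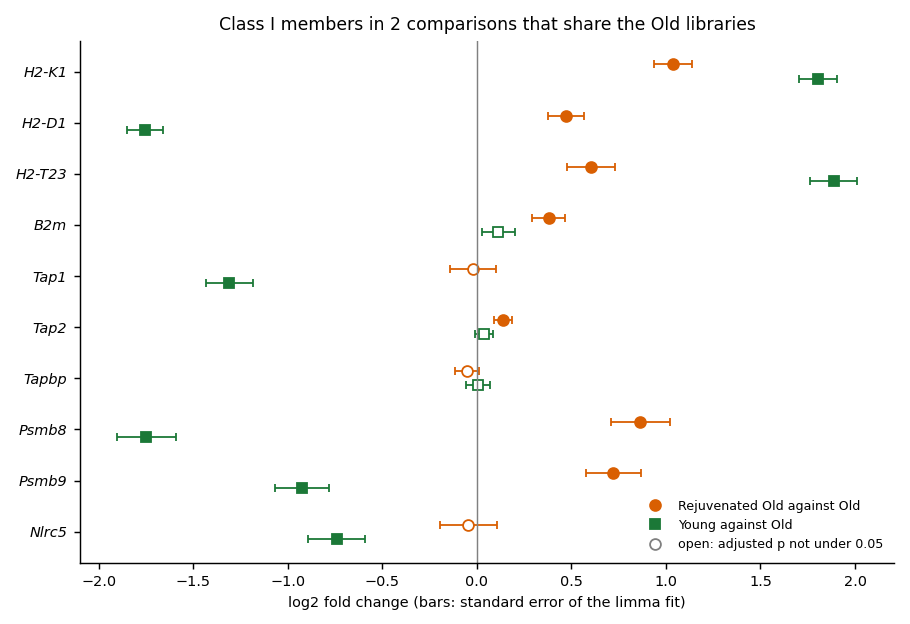
Log2 fold change of each member (x axis; bars, standard error of the limma fit) in Rejuvenated Old against Old MSCs (circles) and Young against Old MSCs (squares), which share the Old libraries; filled symbols had an adjusted p under 0.05. H2-K1 and H2-T23 lie to the right in both comparisons, at 1.04 and 1.81 and at 0.61 and 1.89, whereas H2-D1, Psmb8 and Psmb9 lie to the right in the first and to the left in the second.

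The second comparison, Young against Old MSCs, asked how the members differ with donor age. Of the 10 members 2 were higher in Young MSCs, 5 were lower and 3 did not pass the test, where 85.7% of all genes tested were called, 41.6% higher and 44.1% lower. The members' median log2 fold change was -0.37, beside -0.02 over all genes, and their median absolute log2 fold change was 1.12, beside 0.60. A called share of 7 in 10 was below that of all genes tested. Without Old replicate 2 the members counted 3 higher and 5 lower. Beside these results stands the macrophage marker sum, 952 to 1073 in Young and 14657 to 18233 in Old MSCs, with 11 of 12 markers lower and 1 higher in Young MSCs. Its part in the differences of the members was not tested.

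Both members that were higher in Young MSCs are heavy chains. H2-K1 ran from 6303 to 8544 normalized counts in Young MSCs (median 7088), all above the Old range of 1653 to 2995, and its log2 fold change was 1.81 ± 0.10 (adjusted p = 7.31e-14, limma), or 1.92 without Old replicate 2. H2-T23 ran from 3550 to 5438 (median 4071), all above the Old range of 956 to 1773, with a log2 fold change of 1.89 ± 0.13 (adjusted p = 2.23e-12, limma), or 2.01 without that library. The third heavy chain went the other way. H2-D1 ran from 914 to 1557 normalized counts in Young MSCs (median 1024), all below the Old range of 3155 to 4520, and its log2 fold change was -1.75 ± 0.10 (adjusted p = 6.33e-14, limma), or -1.69 without Old replicate 2. H2-K1 and H2-D1, which pair with the same light chain, were therefore at 7177 ± 775 and 1104 ± 234 normalized counts in Young and at 2079 ± 470 and 3689 ± 461 in Old MSCs.

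B2m was 35671 ± 3606 normalized counts in Young and 33260 ± 6087 in Old MSCs, with overlapping ranges. Its log2 fold change of 0.11 ± 0.09 did not pass the test (adjusted p = 0.229, limma), and without Old replicate 2 it was 0.20 and passed (adjusted p = 0.0103, limma).

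Among the loading genes, Tap1 ran from 1175.5 to 1949 normalized counts in Young MSCs (median 1407) and from 3189 to 4921 in Old MSCs (median 3496). The groups did not overlap, and the log2 fold change was -1.31 ± 0.12 (adjusted p = 1.02e-09, limma), or -1.22 without Old replicate 2. Tap2, which forms the transporter with Tap1, was 2267 ± 156 in Young and 2209 ± 124 in Old MSCs, a log2 fold change of 0.04 (95% interval -0.06 to 0.13), or 0.06 without that library. Tapbp was 4711 ± 324 and 4704 ± 563, a log2 fold change of 0.01 (95% interval -0.11 to 0.13), or 0.07 without it.

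Both inducible proteasome subunits and Nlrc5 were lower in Young MSCs, with no overlap. Psmb8 ran from 311 to 569 normalized counts in Young MSCs (median 381.5) and had a log2 fold change of -1.75 ± 0.16 (adjusted p = 3.7e-10, limma), or -1.61 without Old replicate 2. Psmb9 ran from 155 to 290.5 (median 211), with a log2 fold change of -0.92 ± 0.14 (adjusted p = 3.59e-06, limma), or -0.79 without it. Nlrc5 ran from 254 to 393 (median 305), with a log2 fold change of -0.74 ± 0.15 (adjusted p = 9.39e-05, limma), and -0.60 without Old replicate 2. In all, 7 members had Young and Old ranges that did not overlap, 2 higher and 5 lower, where 35.7% and 38.2% of all genes tested did not overlap in those directions.

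The third comparison set Young against Rejuvenated Old MSCs, to see how far the co-cultured old cells remained from young ones, and 85.6% of all genes tested were called, 41.5% higher and 44.1% lower in Young MSCs. Of the 10 members 2 were higher in Young MSCs, 7 were lower and 1, Tapbp, did not pass (log2 fold change 0.06, 95% interval -0.06 to 0.18). H2-K1 was still higher in Young MSCs by 0.77 ± 0.10 on the log2 scale and H2-T23 by 1.28 ± 0.13 (adjusted p = 2.59e-07 and 2.39e-09, limma). Rejuvenated Old MSCs thus lay between Old and Young MSCs for these 2 heavy chains. For H2-D1 the log2 fold change was -2.23 ± 0.10, for Psmb8 -2.61 ± 0.16 and for Psmb9 -1.65 ± 0.14, and in none of the 3 did the groups overlap. The mean of Old MSCs lay between those of Young and Rejuvenated Old MSCs for H2-D1, Psmb8 and Psmb9. Tap1 did not overlap either, so 2 members were higher and 4 lower in every Young library, where 34.0% and 36.5% of all genes tested were. For Tap1 the log2 fold change was -1.29 ± 0.12 and for Nlrc5, with overlapping ranges, -0.70 ± 0.15. B2m was lower in Young MSCs, with a log2 fold change of -0.27 ± 0.09 (adjusted p = 0.00778, limma), with overlapping ranges, and lost its call when the libraries were scaled to the same total (adjusted p = 0.0638) or quantile normalized (adjusted p = 0.161). Tap2, at -0.10 ± 0.05 (adjusted p = 0.0479), was at the threshold, and edgeR and DESeq2 did not call it (adjusted p = 0.0679 and 0.0912). Its call was also lost without Young replicate 2, 3 or 5 or Rejuvenated Old replicate 1, 3 or 5, each left out alone (adjusted p = 0.076 to 0.144).

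Other class I and class I-like heavy chains were followed as a list of 30 names, of which 25 were in the table and 17 passed the filter. In Rejuvenated Old against Old MSCs 8 of the 17 were higher and 1 was lower, where 21.0% and 20.6% of all genes tested were. The median log2 fold change of the 17 was 0.31, or 0.15 with the genes at the floor set to their bound. H2-Q4, a Qa-region heavy chain, ran from 118 to 317 normalized counts in Old and from 455 to 663 in Rejuvenated Old MSCs, without overlap (log2 fold change 1.80 ± 0.17, adjusted p = 1.55e-08, limma). H2-Q6 and H2-Q7, which belong to the Qa-2 group, had log2 fold changes of 1.68 ± 0.40 and 1.32 ± 0.41, on means of 7.63 against 2.11 and 42.4 against 16.9 normalized counts. These Qa genes were thus low next to H2-K1, whose Rejuvenated Old mean was 4213. Cd1d1, which presents lipids, was the 1 that fell (464 against 541 normalized counts, log2 fold change -0.22 ± 0.07), and its call was lost without Old replicate 5 (adjusted p = 0.0568) or Rejuvenated Old replicate 1 (adjusted p = 0.0564). The rises also took in H2-T9, H2-T10, H2-M3, Hfe, which binds the transferrin receptor, and Fcgrt, the neonatal Fc receptor chain. These genes were named after their values had been seen, and their log2 fold changes ran from 0.15 for Fcgrt to 0.81 for H2-T9.

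Between Young and Old MSCs, 10 of the 17 heavy chains were higher in the Young and 6 were lower, or 10 and 5 without Old replicate 2. With all libraries, 41.6% of all genes tested were higher and 44.1% lower. H2-Q2 and H2-Q1 were at or under 3 reads in every Old library, and ran from 458 to 626 and from 203 to 319 normalized counts in Young MSCs, at least 169-fold and 82.0-fold higher than a floor of 3 reads per library. In Rejuvenated Old MSCs they ran from 0 to 8.24 and from 0 to 6.18. H2-Q4, H2-Q6 and H2-Q7 had log2 fold changes of 2.26, 3.53 and -2.24. H2-K2 rose by 3.23 ± 0.21 on the log2 scale, on means of 262 against 27.9 normalized counts. Heavy chain genes share long near-identical stretches, and how reads that fit several of them were counted is not given in the sources used here. The split of reads among H2-K1, H2-D1, H2-K2 and the H2-Q and H2-T genes is uncertain for that reason.

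**Figure D3:**
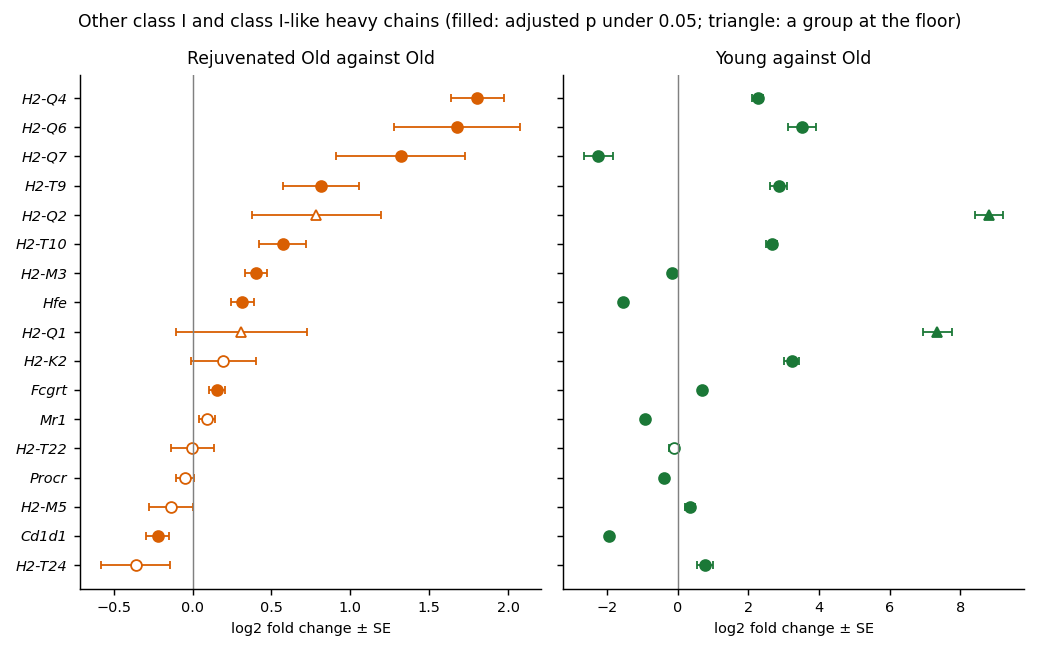
Log2 fold change ± SE of the 17 other class I and class I-like heavy chains that passed the filter, in Rejuvenated Old against Old (left) and Young against Old MSCs (right), which share the Old libraries. Filled symbols had an adjusted p under 0.05 and triangles mark genes with a group at or under 3 reads in every library; H2-Q4 leads on the left at 1.80, and on the right the triangles of H2-Q2 and H2-Q1 are fitted values, not bounds.

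Of 19 other genes of peptide loading and trimming, 4 were higher and 7 lower in Rejuvenated Old against Old MSCs, with a median log2 fold change of -0.03. Over all genes tested the shares were 21.0% and 20.6%. The largest rises were those of Sec61g, part of the channel into the endoplasmic reticulum (0.23 ± 0.06), and Calr, a chaperone of the loading complex (0.13 ± 0.05). The call of Calr was lost without Old replicate 1, 5 or 6 or Rejuvenated Old replicate 1 or 3, each left out alone (adjusted p = 0.0642 to 0.106), and without Old replicate 2 the list had 3 higher and 7 lower. The largest falls were those of Lnpep, a peptidase that trims peptides in endosomes (448 to 301 normalized counts, -0.58 ± 0.10), and Canx, which holds newly made heavy chains (-0.33 ± 0.06). The last 2 did not overlap between groups. Young MSCs had 7 of the 19 higher and 9 lower than Old MSCs, where 41.6% and 44.1% of all genes tested were called in those directions. Sec61b (0.51 ± 0.05) and Sec61a1 (0.41 ± 0.03) rose most, and Lnpep (-0.92 ± 0.10) and the cytosolic peptidase Tpp2 (-0.62 ± 0.04) fell most.

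Among 8 other proteasome genes of the pathway, 3 were higher in Rejuvenated Old MSCs and 0 lower, beside 21.0% and 20.6% of all genes tested. At an unadjusted p under 0.05 with limma, and by edgeR and DESeq2, the counts were again 3 and 0, and they were 4 and 0 without Old replicate 2. The proteasome activator subunit Psme1 rose from 1804 ± 201 to 2549 ± 216 normalized counts with no overlap (log2 fold change 0.50 ± 0.06, adjusted p = 5.11e-07, limma), and Psmb10, the third inducible subunit, from 1209 ± 184 to 1648 ± 174 (0.45 ± 0.08, adjusted p = 0.00011, limma). The third was Psme2, the partner of Psme1. The constitutive subunits stayed close to their Old levels, with log2 fold changes of 0.02 ± 0.05 for Psmb5, 0.03 ± 0.04 for Psmb6 and 0.06 ± 0.04 for Psmb7, and none of these passed the test. Young MSCs had 4 of the 8 higher than Old MSCs, led by Psme1 (1.17 ± 0.06) and Psmb6 (0.32 ± 0.04). The other 4 were lower, with Psmb5 (-0.64 ± 0.05) and the assembly factor Pomp (-0.17 ± 0.05) lowest. Of all genes tested 41.6% were higher and 44.1% lower in this comparison.

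The ratio of each inducible subunit to the constitutive one it replaces was taken within each library, which removes the scaling between libraries. Psmb8 to Psmb5 ran from 0.370 to 0.682 in Young (median 0.448), from 0.758 to 1.76 in Old (median 0.968) and from 1.51 to 2.19 in Rejuvenated Old MSCs (median 1.76). Rejuvenated Old MSCs were higher than Old MSCs by 0.84 on the log2 scale (exact permutation p = 0.00866, two-sided over all 924 splits, and adjusted p = 0.0111 over 9 tests), and only Old replicate 2 reached into their range. Young against Old MSCs differed by -1.10, without overlap (exact permutation p = 0.00216, the smallest this design allows).

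Psmb9 to Psmb6 ran from 0.0234 to 0.0501 in Young (median 0.0349), from 0.0648 to 0.134 in Old (median 0.0785) and from 0.107 to 0.157 in Rejuvenated Old MSCs (median 0.138). The differences on the log2 scale were 0.69 for Rejuvenated Old against Old (exact permutation p = 0.00649, adjusted p = 0.0111) and -1.25 for Young against Old MSCs (exact permutation p = 0.00216, adjusted p = 0.00487). Young against Rejuvenated Old MSCs differed by -1.94 for either ratio, with the same smallest p by the exact permutation test. Both ratios thus rose in order from Young to Old to Rejuvenated Old MSCs. Psmb10 to Psmb7 had another order. It ran from 0.306 to 0.381 in Young (median 0.337), from 0.230 to 0.347 in Old (median 0.241) and from 0.309 to 0.382 in Rejuvenated Old MSCs (median 0.330). Rejuvenated Old and Young MSCs were both higher than Old MSCs, by 0.40 and 0.42 on the log2 scale (exact permutation p = 0.0108 and 0.00866, adjusted p = 0.0122 and 0.0111). The difference of 0.02 between Young and Rejuvenated Old MSCs did not pass (exact permutation p = 0.742). Without Old replicate 2 the differences from Old MSCs of Rejuvenated Old and of Young MSCs were 1.00 and -0.94 for Psmb8 to Psmb5, 0.83 and -1.11 for Psmb9 to Psmb6, and 0.48 and 0.51 for Psmb10 to Psmb7, all still called.

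**Figure D4:**
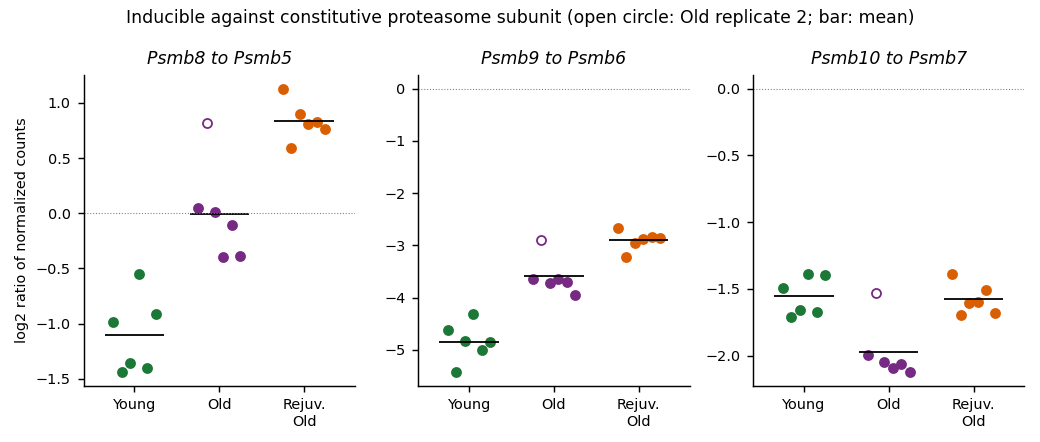
Log2 ratio of normalized counts of each inducible proteasome subunit to its constitutive counterpart, with 1 point per library and a bar at the mean of each group; the open circle is Old replicate 2. Psmb8 to Psmb5 and Psmb9 to Psmb6 rise from Young to Old to Rejuvenated Old MSCs, while Psmb10 to Psmb7 is alike in Young and Rejuvenated Old MSCs, with means of -1.55 and -1.58, and at -1.97 in Old MSCs.

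Signals that feed class I genes were followed as 27 genes of interferon and NF-kB signalling, of which 24 were tested. In Rejuvenated Old against Old MSCs 9 were higher and 3 lower, or 10 and 3 without Old replicate 2. With all libraries, 21.0% of all genes tested were higher and 20.6% lower. Ifngr1, the ligand-binding chain of the interferon gamma receptor, ran from 9308 to 9828 normalized counts in Old and from 13406 to 17921 in Rejuvenated Old MSCs, without overlap (log2 fold change 0.75 ± 0.05, adjusted p = 1.52e-10, limma). Irf1, a factor that binds class I promoters, ran from 1379 to 1853 and from 1981 to 2498, also without overlap (0.46 ± 0.06, adjusted p = 6.14e-06, limma). Falls were small, the largest being Ifnar1 (-0.16 ± 0.03) and Ifngr2 (-0.16 ± 0.03), receptor chains for type I interferon and interferon gamma. The ligands were scarcely read. Ifng was at or under 3 reads in every library, and Ifnb1 reached at most 8 reads in any library.

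In Young against Old MSCs 6 of the 24 signalling genes were higher and 13 were lower, beside 41.6% and 44.1% of all genes tested. Ifngr1 (-2.20 ± 0.05) and Ifngr2 (-2.23 ± 0.03) were both lower in Young MSCs without overlap, at 2067 against 9519 and 850 against 3986 normalized counts. Tnf was lower too, at 2.46 against 51.6 (-4.13 ± 0.30). Irf7 (2.97 ± 0.35) and Irf9 (1.11 ± 0.15), factors of the type I interferon response, were higher in Young MSCs. For Irf1 the log2 fold change was -0.06 ± 0.06 (adjusted p = 0.405, limma). The macrophage marker sum was 952 to 1073 normalized counts in Young and 14657 to 18233 in Old MSCs, and its part in the values of these signalling genes was not tested.

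The list of 30 interferon-induced genes gives a readout of that response beyond class I. Its summed level ran from 52828 to 98964 normalized counts in Young, from 24723 to 99462 in Old and from 31067 to 80976 in Rejuvenated Old MSCs. In Rejuvenated Old against Old MSCs 3 of 30 were higher, and 0 were lower in the limma fit, at an unadjusted p under 0.05 and by edgeR and DESeq2. Without Old replicate 2 the count was 8 higher and 0 lower. With all libraries, 21.0% of all genes tested were higher and 20.6% lower. Gbp5 (0.87 ± 0.27) and Ifi47 (0.85 ± 0.21), interferon-induced GTPases, rose most. Young MSCs had 15 higher and 4 lower than Old MSCs, and 23 and 2 without Old replicate 2. With all libraries, 41.6% of all genes tested were higher and 44.1% lower. The share of this list called in either direction was then below the 85.7% of all genes tested. Gbp4 was at or under 3 reads in every Old library and averaged 170 normalized counts in Young MSCs, at least 56.6-fold higher. Mx1 rose by 4.50 ± 0.67 on the log2 scale. Cxcl9 was at or under 3 reads in every Young library, at least 23.2-fold lower than in Old MSCs, or at least 14.4-fold without Old replicate 2, and Iigp1 fell by 1.20 ± 0.30 on the log2 scale. The summed level overlapped between Young and Old MSCs through Old replicate 2 alone, since the other Old libraries reached at most 52247. Its part in the differences of the members was not tested. The part of the macrophage marker sum in the values of this list, Cxcl9 among them, was not tested either.

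**Figure D5:**
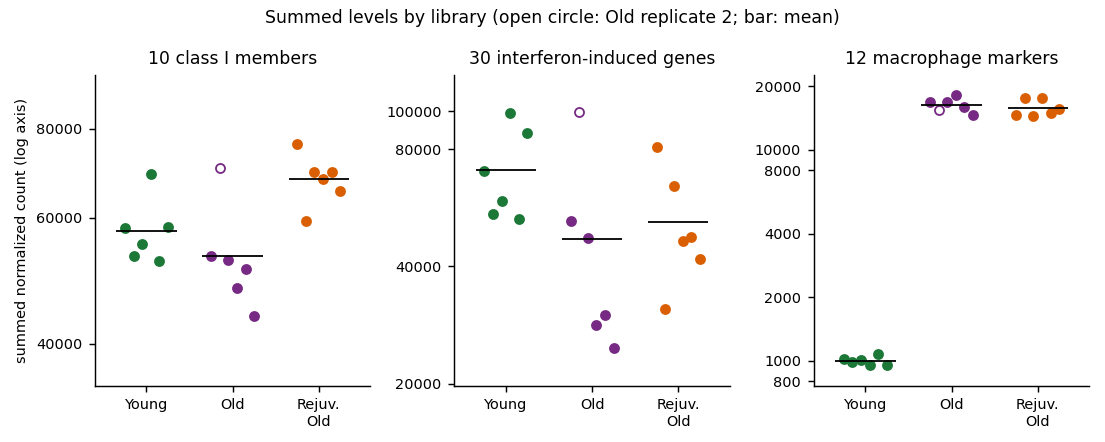
Summed normalized counts (log axis, scaled per panel) of the 10 members, of 30 interferon-induced genes and of 12 macrophage markers, with 1 point per library, a bar at the group mean and Old replicate 2 as an open circle. For the interferon-induced genes Old replicate 2, at 99462, is the 1 Old library within the Young range or above it, and the macrophage markers are at 952 to 1073 in Young MSCs and at 14459 or more in both Old groups.

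Of 9 genes for factors that bind class I and class II promoters with Nlrc5 or Ciita, 2 were higher and 2 lower in Rejuvenated Old against Old MSCs, all by small amounts. They were Creb1 (0.15 ± 0.04), Nfya (0.10 ± 0.04), Nfyc (-0.13 ± 0.04) and Atf1 (-0.12 ± 0.04). The call of Nfya was lost without Old replicate 1 or 3 or Rejuvenated Old replicate 2, 3 or 6 (adjusted p = 0.0583 to 0.0788), and that of Atf1 without Old replicate 1 or 2 or Rejuvenated Old replicate 5 or 6 (adjusted p = 0.0572 to 0.074). Without Old replicate 2 the counts were 2 higher and 1 lower. With all libraries, 21.0% of all genes tested were higher and 20.6% lower. Young MSCs had 5 higher and 3 lower than Old MSCs, beside 41.6% and 44.1% of all genes tested. The RFX subunits Rfxap (1.11 ± 0.07) and Rfxank (0.94 ± 0.06) rose most, Nfyb fell (-0.45 ± 0.04), and Ciita, the class II counterpart of Nlrc5, was at a mean of 7.25 against 13.1 normalized counts (-0.83 ± 0.33, adjusted p = 0.0255, limma). The call of Ciita was lost without Young replicate 6 (-0.57, adjusted p = 0.0847), Old replicate 2 (adjusted p = 0.0547) or Old replicate 4 (adjusted p = 0.064), and without Old replicate 2 the list had 5 higher and 2 lower. MHC class II genes, which serve antigen-presenting cells, were followed as a contrast. In Rejuvenated Old against Old MSCs 0 of 5 tested were called by limma, where 41.6% of all genes tested were. At an unadjusted p under 0.05 the count was also 0, while edgeR and DESeq2 each called 1, higher. In Young against Old MSCs 4 were lower and 1, H2-DMa, was higher (0.69 ± 0.07), where 85.7% of all genes tested were called. H2-DMb1 averaged 3.67 against 771 and H2-Eb1 1.03 against 76.6 normalized counts. The macrophage markers moved with them in this comparison, with 11 of 12 lower in Young MSCs and a sum of 952 to 1073 against 14657 to 18233 normalized counts, and their part in the class II values was not tested.

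Genes beside the members on chromosome 17 were counted too. The members, the other class I and class I-like heavy chains and the MHC class II list were left out, and genes of the other lists were not. Of 83 other genes tested between Tapbp and H2-T23, 25 were higher and 7 lower in Rejuvenated Old against Old MSCs. Their median log2 fold change was 0.07, beside 0.05 over all 725 genes tested on chromosome 17 and 0.01 over autosomal genes. In Young against Old MSCs 54 were higher and 18 lower, with a median of 0.30 beside 0.22 over chromosome 17 and -0.03 over autosomal genes. On the whole chromosome 188 genes were higher and 108 lower in the first comparison, and 404 and 217 in the second, where 21.0% and 20.6%, and 41.6% and 44.1%, of all genes tested were called in those directions. Whether the interval differs from the rest of the chromosome was not tested.

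By the smallest root mean square difference of log2 profiles, centred on their mean over the 18 libraries, the genes most like H2-K1 were Cacna1a (0.169), Myc (0.171) and Ly6a (0.177). Ly6a encodes Sca-1, a surface marker used to identify mouse MSCs. Among the 3 most like B2m were Rnf114 (0.119) and Psmb10 (0.124). H2-D1 was closest to Stk39 (0.178), H2-T23 to Isg20 (0.182), Tap1 to Tor1aip2 (0.130) and Nlrc5 to Agrn (0.133). Psmb8 and Psmb9 had no gene as near, at 0.266 for Kcna4 and 0.228 for 4933412E12Rik. Tap2 and Tapbp, which hardly varied, were closest to Gas8 (0.0663) and Nub1 (0.0779). These distances describe the 18 libraries, whose 3 groups set most of each profile.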

How the data were processed

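RNA from 18 MSC cultures, 6 for each of 3 groups taken from the sample labels, was sequenced from stranded mRNA libraries. According to the submitters' processing notes, the authors used HISAT2, StringTie, featureCounts and DESeq2 with mm10; versions, annotation, strand setting and the handling of reads with several positions are not given in the sources used here. The deposited signal is a read count per gene divided by 1 size factor per library. Size factors were undone (100% of values whole within 0.01 reads), giving 22936251 to 29559194 reads per library, a 1.29-fold range, and a floor of 3 reads per library that covers counting error only.

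The test was limma 3.58.1 (R 4.3.3) on log2(value + 1), fitted once to all 3 groups with a mean-dependent prior variance, and 14353 genes averaging 10 or more entered. Fold changes are on that scale, which understates those of low genes. Genes with a Benjamini-Hochberg adjusted p under 0.05 over all genes were called, and 95% intervals are the estimate ± 1.96 SE. Ratios used exact permutation tests. edgeR 4.0.16 and DESeq2 1.42.0 on recovered reads were alternatives, with the scaling, pseudocount, filter, prior, block and left-out libraries. Tests were tried on simulated data.

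The 10 members, the gene lists and the tests were chosen with earlier results of these data known. Of each list, the genes named are those always followed (Psmb5, Psmb6, Psmb7, Psmb10, Irf1, Ciita, Ifng and Ifnb1) and the 2 largest rises and 2 largest falls called, with either Rejuvenated Old or Young MSCs set against Old. Some genes that the rule names are not reported here, and any gene outside it was named after its values were seen. Positions and promoter windows are RefSeq's for GRCm38.p6, and exon lengths are those of GENCODE (mm10). Figures used matplotlib 3.10.9 and Python 3.11.15.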

Additional observations from a re-analysis of the deposited data

Results flagged for a closer look

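Within each group of 6 libraries the highest or lowest library was set against its nearest neighbour (Dixon's test at the 95% level), for the members, the other genes reported and the ratios. Of 164 groups tested 29 were past the critical value, where chance gives about 1 in 20. The causes were not tested.

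Old replicate 2 was far above the other Old libraries for 7 members. It had 2995 normalized counts of H2-K1 (next library 2064), 1773 of H2-T23 (next 1147), 4921 of Tap1, 5782 of Tapbp, 2131 of Psmb8, 631 of Psmb9 and 850 of Nlrc5. The same library stood out for the heavy chain H2-Q4 (317), the proteasome genes Psme1 (2183) and Psmb10 (1571), the interferon-response genes Irf7 (2399) and Ifi47 (1807), and the chemokine Cxcl9 (212). Its log2 ratios were 0.82 for Psmb8 to Psmb5, -2.90 for Psmb9 to Psmb6 and -1.53 for Psmb10 to Psmb7.

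Young replicate 4 stood out for H2-D1 (1557 normalized counts, next 1139), B2m (42701), H2-Q2 (626) and H2-Q1 (319). Young replicate 2 stood out for H2-Q7 (12.9) and, as the lowest, for Atf1 (1933), and Young replicate 6 for H2-Eb1 (6.18, with the other 5 at 0).

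Rejuvenated Old replicate 1 stood out for H2-Q2 (8.24), H2-Q1 (6.18), Gbp4 (10.3) and Mx1 (70.0), genes with few counts in that group, and Rejuvenated Old replicate 5 for Irf1 (2498). Old replicate 4 stood out for Tnf (64.5).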

How the results depend on the processing

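Of 810 alternative values of the members' fold changes, 766 kept their direction and their side of the threshold. Counts of members called kept to within 1.5 times in all alternatives but 1: with libraries scaled to the same total, 4 members in place of 2 were higher in Young against Old MSCs, and leaving out 1 library gave 2 to 3. Values near 0 changed sign. In Rejuvenated Old against Old MSCs, leaving out 1 library gave -0.069 to 0.066 for Tap1, -0.089 to 0.0078 for Tapbp, -0.14 to 0.10 for Nlrc5 and -0.0060 to 0.058 for Psmb5. Leaving out Old replicate 2 and Young replicate 4 together, chosen after seeing the data, gave 0.066, 0.0078, 0.10 and -0.00108 in that order. Those are the values without Old replicate 2 alone, since no Young library enters these fold changes. In Young against Old MSCs Tapbp ran from -0.028 to 0.068 without 1 library, Irf1 was 0.016 with the same total, and Ciita was 0.0013 under quantile normalization, which gave 0.32 for Ciita in Young against Rejuvenated Old MSCs. The Psmb10 to Psmb7 difference between Young and Rejuvenated Old MSCs ran from -0.0081 to 0.062 without 1 library.

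The labels do not say whether the replicate numbers pair the samples. Deviations of same-numbered libraries correlated between -0.15 and 0.07 over 18 pairs of libraries, which shows no pairing but cannot exclude one. With the number as a replicate block, the exact sign-flip test of 6 pairs, whose smallest p is 0.0312, gave an adjusted p of 0.0703 for 8 ratio differences, of 0.84, -1.10 and -1.94 for Psmb8 to Psmb5, 0.69, -1.25 and -1.94 for Psmb9 to Psmb6, and 0.40 and 0.42 for Psmb10 to Psmb7. In the fits over all genes the block ended the call of Tap2 in Young against Rejuvenated Old MSCs (adjusted p = 0.0638, limma) and of no other member, and those of Calr and Nfya in Rejuvenated Old against Old MSCs (adjusted p = 0.0533 and 0.0511). Groups of 6 and reads of about equal depth limit small differences such as those of Tap2, and shared reads limit the heavy chains.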
